A study of Homo sapiens with 4 samples.

Results

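Nucleolar ribosome assembly factors were followed as 60 genes chosen by name, all of which were found by symbol among the 29209 genes listed in each library. They comprised 7 factors of RNA polymerase I transcription, 9 of small nucleolar ribonucleoproteins (snoRNPs), 22 of the small ribosomal subunit, 19 of the large subunit and 3 abundant nucleolar proteins that serve several steps. The material was HaCaT, a spontaneously immortalised human keratinocyte line. TCN1_OE cells carried a lentiviral construct for TCN1, the gene of haptocorrin, a secreted carrier of vitamin B12, and NC cells were the lentiviral study's negative control, with 2 polyA RNA libraries of each and HaCaT as the shared background. The labels do not say what the NC cells carried, whether either line was a clone or a pool, or whether the 2 libraries of each were grown apart. The p-values therefore measure the spread between these libraries only, which may be technical.

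Ribosomes are assembled in the nucleolus, where RNA polymerase I transcribes the precursor of the large ribosomal RNAs. Box C/D snoRNPs guide 2'-O-methylation of that precursor and box H/ACA snoRNPs guide its pseudouridylation. The small subunit processome and a separate set of large subunit factors then fold, cleave and export the precursors of both subunits, and output is known to follow cell growth.

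Library totals were 16586500 and 14756073 counts in TCN1_OE and 19973550 and 11593377 counts in NC. TCN1 itself had 1700 and 1253 counts in TCN1_OE, against 50 and 17 in NC, in the direction of the labels. All 11 keratinocyte markers reached 1 FPKM (a level scaled by gene length and by library size), with KRT5 at 2228 and 2428 FPKM in TCN1_OE and 2039 and 2210 FPKM in NC. Of the 11, 9 had a positive log2 fold change, 3 were higher at an unadjusted p under 0.05 and 0 were called. KRT15, a basal keratin, had 975 and 1038 FPKM in TCN1_OE and 667 and 756 FPKM in NC, at 0.50 ± 0.09 with an edgeR adjusted p of 0.0540, and the part of these markers in the results below was not tested. Of 29 markers of fibroblasts, melanocytes, immune and endothelial cells, 22 were listed and 3 reached a mean of 1 FPKM. These were COL1A1, CD14 and VWF. COL1A1 had 1.65 and 2.04 FPKM in TCN1_OE and 1.61 and 2.12 FPKM in NC. CD14 had 2.01 and 2.80 FPKM in TCN1_OE and 2.34 and 2.20 FPKM in NC. VWF had 0.88 and 1.28 FPKM in TCN1_OE and 0.75 and 1.12 FPKM in NC. The 22 summed to 6.504 and 7.96 FPKM in TCN1_OE and 6.52 and 7.20 FPKM in NC, and the leukocyte marker PTPRC was listed at 0.0234 and 0.00878 FPKM in TCN1_OE and at 0 in both NC libraries. Mitochondrially encoded genes took 6.04% and 5.65% of counts in TCN1_OE, against 5.33% and 5.13% in NC, so this share moved with the groups and its part in the results below was not tested.

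Transcripts of nucleolar assembly factors were lower in TCN1_OE cells. Of 57 members with enough counts to test, 9 fell at an edgeR adjusted p under 0.05 and 0 rose (0 by DESeq2 too), while 0.212% of all 15113 genes tested were called lower and 0.285% higher. The 9 were POLR1B, TCOF1, NOLC1, NOP56, DKC1, WDR43, TSR1, URB2 and DDX21, so each of the 5 classes held at least 1. A negative log2 fold change was found in 54 of the 57, against 49.7% of all genes tested. At an unadjusted p under 0.05, 44 members were lower and 0 higher, against 6.81% and 6.00% of all genes tested. The median log2 fold change of the members was -0.36, a change of -22.2% in TCN1_OE, beside a median of 0.0016 over all genes tested. In FPKM, 48 of the 57 had both TCN1_OE libraries below both NC libraries, a pattern shown by 21.0% of all genes tested, and 1 had both above, against 21.7%. The members were chosen with earlier results of these data known. The shares beside those of all genes therefore describe the set and are no independent test of it. In bulk RNA, fewer cells that express a gene and less RNA per cell cannot be told apart.

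**Figure D1:**
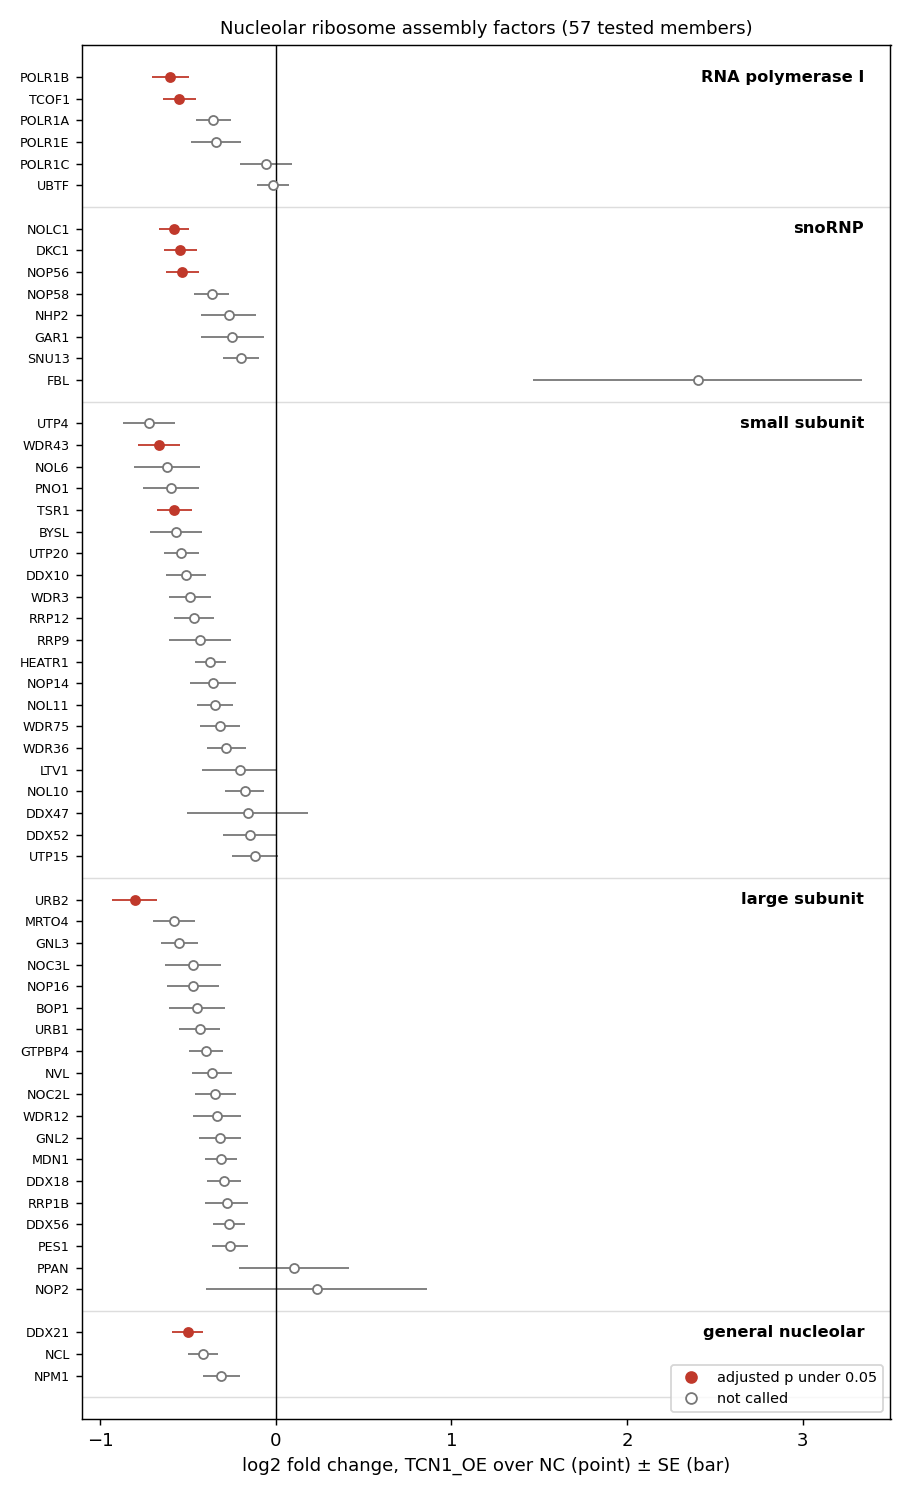
Log2 fold change (TCN1_OE over NC, x axis) of the 57 tested members, one row per gene, grouped by class; points are edgeR estimates, bars are standard errors, and filled red points have an adjusted p under 0.05. All but FBL, PPAN and NOP2 lie left of 0, and FBL at 2.40 has the widest bar.

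The number of members called depended on the test. DESeq2 called 15 members lower, including all 9, against 0.748% of all genes. With edgeR on genes that averaged 1 FPKM or more, 2 were called, NOLC1 and URB2, against 0.122%. With edgeR on RLE size factors in place of TMM 7 were called, against 0.199%, without NOP56 and WDR43, whose adjusted p became 0.0527 and 0.0514. Without either scaling 11 were called, against 0.417%. Without a filter on low counts 26 were called, against 0.941%. Limma on log2(FPKM + 0.5) called 0 members and 0% of genes lower, with 38 members lower and 0 higher at an unadjusted p under 0.05. With the replicate number as a block, a pairing the labels do not state, 45 were called, against 11.0%. Leaving out TCN1_OE replicate 1 or TCN1_OE replicate 2 gave 17 and 13 members called lower, against 0.737% and 0.721% of genes. Leaving out NC replicate 1 or NC replicate 2 gave 10 and 17, against 0.889% and 0.650%. Of the 9, 6 remained called without NC replicate 1, 8 without TCN1_OE replicate 2 and 9 without either of the other libraries. Across these settings 52 to 55 members had a negative value, of 55 to 60 tested.

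**Figure D2:**
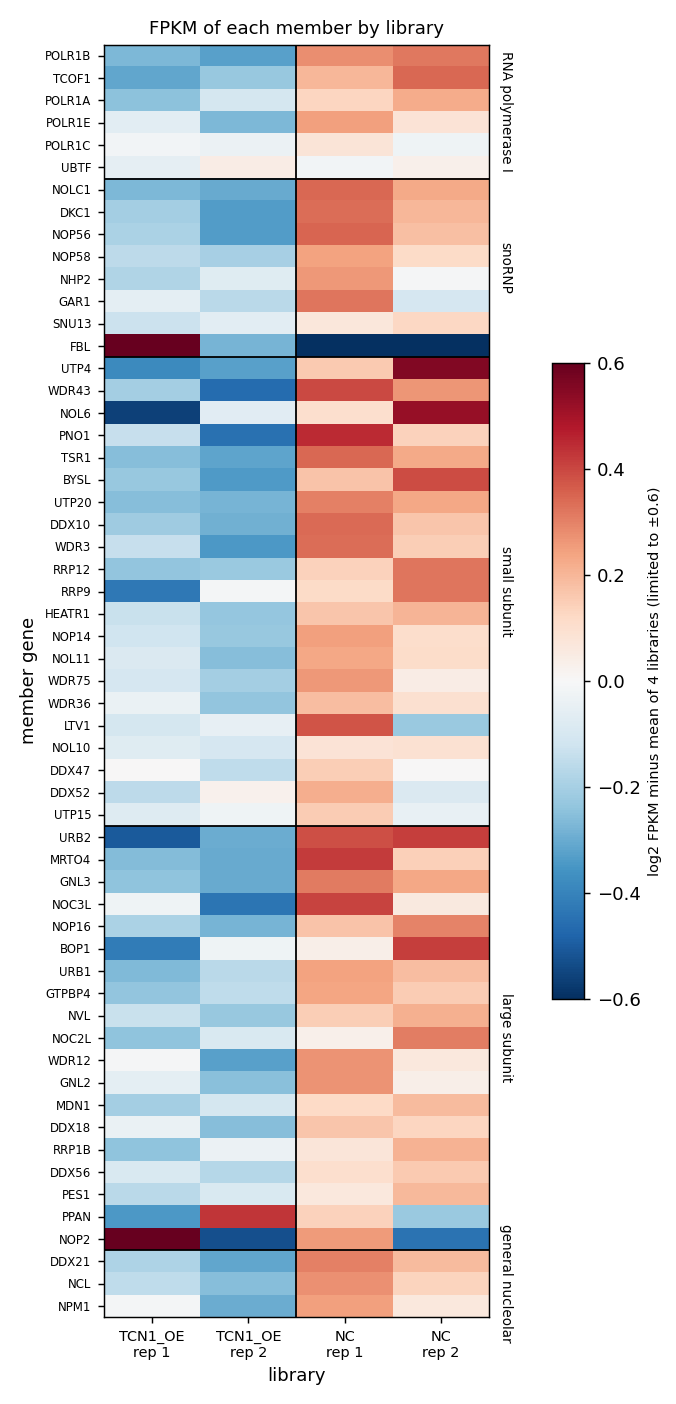
FPKM of each tested member in each library, as the log2 value minus the mean of the 4 libraries (colour, limited to ±0.6), TCN1_OE libraries on the left and NC libraries on the right. Most rows are blue in both TCN1_OE columns and red in both NC columns, while FBL, PPAN and NOP2 differ from that pattern.

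The spread between libraries of a group was smaller than the shift for most members. The median size of the log2 FPKM difference was 0.11 between the TCN1_OE libraries and 0.14 between the NC libraries, against 0.36 between the group means. Over the 11277 tested genes of at least 1 FPKM with a count in every library, the same 3 medians were 0.16, 0.15 and 0.14.

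Among the RNA polymerase I factors, 2 of 6 tested members fell and the median log2 fold change was -0.35. POLR1B, the second-largest subunit of the enzyme, had 5.01 and 4.82 FPKM in TCN1_OE, against 7.34 and 7.53 FPKM in NC. The groups did not overlap, and the log2 fold change was -0.60 ± 0.11 (SE) with an edgeR adjusted p of 0.0475. TCOF1, which encodes treacle, a nucleolar protein that binds the polymerase and the rDNA factor UBF, had 14.97 and 15.9 FPKM in TCN1_OE and 21.4 and 23.6 FPKM in NC. It fell by 0.55 ± 0.09 on the log2 scale, with the same adjusted p of 0.0475. The largest subunit, POLR1A, had 6.02 and 6.64 FPKM in TCN1_OE, against 7.82 and 8.33 FPKM in NC, and did not pass, at -0.35 ± 0.10 with an edgeR adjusted p of 0.164. POLR1E, a subunit of the detachable pair of the enzyme, also missed the threshold, at -0.34 ± 0.14. The smallest changes were those of POLR1C and UBTF. POLR1C, a subunit shared with RNA polymerase III, had 3.22 and 3.18 FPKM in TCN1_OE and 3.43 and 3.20 FPKM in NC, a log2 fold change of -0.06 ± 0.15, with 18.2% of its exonic bases under other annotated genes. UBTF, which encodes UBF itself, had 17.9 and 19.1 FPKM in TCN1_OE and 18.4 and 18.9 FPKM in NC. Its groups overlapped and its log2 fold change was -0.01 ± 0.09, with a positive sign without NC replicate 2 or TCN1_OE replicate 1. RRN3, the initiation factor that recruits the polymerase, had 6 and 6 counts in TCN1_OE and 5 and 2 in NC and was not tested.

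Of 8 tested snoRNP factors, 3 fell and the median was -0.32. NOLC1, which encodes the snoRNP chaperone Nopp140, had 41.8 and 40.9 FPKM in TCN1_OE, against 64.1 and 59.1 FPKM in NC. Its log2 fold change of -0.58 ± 0.09 had the smallest edgeR adjusted p of all members, 0.0323, and NOLC1 and URB2 were called in every alternative except limma on FPKM. In the box C/D core, NOP56 had 31.2 and 28.1 FPKM in TCN1_OE, against 45.2 and 40.3 FPKM in NC, and fell by 0.53 ± 0.10 with an adjusted p of 0.04996. NOP58, its partner on the same particle, had 21.1 and 20.4 FPKM in TCN1_OE and 27.8 and 25.4 FPKM in NC, and missed the threshold at -0.36 ± 0.10. SNU13, which binds the kink-turn of the guide RNA, stood at -0.20 ± 0.10. In the box H/ACA core, DKC1, the gene of the pseudouridine synthase dyskerin, had 11.7 and 10.7 FPKM in TCN1_OE and 17.03 and 15.5 FPKM in NC, and fell by 0.54 ± 0.10 with an adjusted p of 0.0475. Its partners NHP2 and GAR1 stood at -0.27 ± 0.15 and -0.25 ± 0.18, and the groups overlapped for GAR1 because NC replicate 2, at 7.60 FPKM, lay below TCN1_OE replicate 1, at 7.83 FPKM. Whether the called genes of a particle differed from their partners was not tested.

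The estimate for fibrillarin (FBL), the methyltransferase of box C/D snoRNPs, was positive, unlike that of most members. FBL had 187 and 30 counts in TCN1_OE, against 22 and 17 counts in NC, which is 5.27 and 0.951 FPKM in TCN1_OE and 0.515 and 0.686 FPKM in NC. The groups did not overlap, and TCN1_OE replicate 1 alone stood far above the other libraries. The log2 fold change was 2.40 ± 0.94, and FBL was not called, with an edgeR adjusted p of 0.412. Without TCN1_OE replicate 1 the log2 fold change was 0.69 with an adjusted p of 0.679. Without TCN1_OE replicate 2, which leaves replicate 1 as the lone TCN1_OE library with the spread of the other group, it was 3.14 with an adjusted p of 1.7e-15. The level was low for a core protein of a particle whose other subunits were well covered: per length, FBL came to 16.9% and 3.38% of NOP56 in TCN1_OE and to 1.14% and 1.70% of NOP56 in NC. The gene (chromosome 19, 39834458 to 39846414 on the minus strand, GRCh38) has 0 exonic bases under another gene of GENCODE v29.

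**Figure D3:**
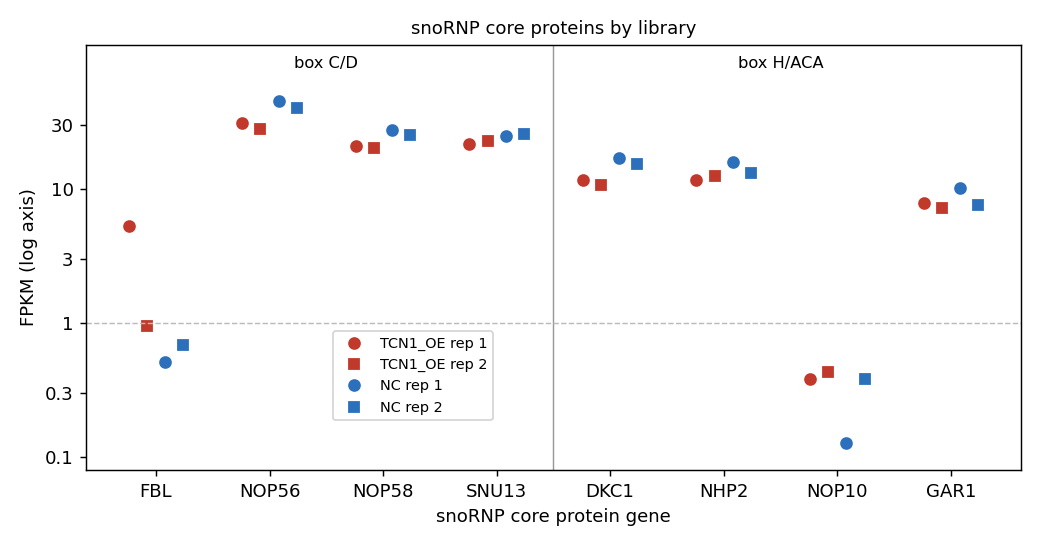
FPKM (log axis) of the 4 box C/D and 4 box H/ACA core proteins in each library; red marks are TCN1_OE, blue marks NC, circles replicate 1 and squares replicate 2, and the dashed line is 1 FPKM. FBL lies under 1 FPKM in all libraries but TCN1_OE replicate 1, NOP10 under 1 FPKM in all 4, and the other core proteins between 7.28 and 45.2 FPKM.

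FBL averaged 1.86 FPKM over the 4 libraries, while 5 members had a mean under 1 FPKM, although dividing cells are known to need them. NOP10, the smallest H/ACA core protein, had 10 and 10 counts in TCN1_OE and 4 and 7 in NC. NOC4L, the partner of NOP14 in the small subunit processome, had 0 and 0 counts in TCN1_OE and 0 and 1 in NC. The rRNA methyltransferase gene NOP2 had 16 and 6 counts in TCN1_OE and 14 and 5 in NC, the helicase gene DDX47 had 30 and 24 in TCN1_OE and 40 and 21 in NC, a log2 fold change of -0.16 ± 0.35, and RRN3 had the counts given above. At 1500 bp, 3 counts correspond to between 0.1001 and 0.173 FPKM, and NOC4L lay under that floor of 3 counts in all libraries. In GENCODE v29, other genes cover 54.4% of the exonic bases of NOP2 and 36.5% of those of DDX47, and 0% of those of FBL, NOP10, NOC4L and RRN3; RRN3 has 2 named pseudogenes. The counts rest on another annotation, whose overlaps are not known here: NOP10 has 1576 bp in the files against 554 exonic bp in v29. How reads in overlapping genes or with several matches were counted is not given in the sources used here, and its part in these values was not tested. PPAN, a large subunit factor with 59.8% of its exonic bases under the read-through gene PPAN-P2RY11 and P2RY11, had 1.04 and 1.78 FPKM in TCN1_OE and 1.46 and 1.13 FPKM in NC. It and NOP2 were the other 2 members with a positive log2 fold change, 0.10 ± 0.31 and 0.23 ± 0.63, and in both the groups overlapped and the sign turned when 1 library was left out.

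The small subunit factors had the lowest class median, -0.43, and all 21 tested members had a negative value, against 49.7% of all genes tested. WDR43 and TSR1 fell. At an unadjusted p under 0.05, 16 members were lower, against 6.81% of all genes tested. In 18 members both TCN1_OE libraries lay below both NC libraries, against 21.0% of all genes tested. WDR43, the UTP5 subunit of the UTP-A complex that first binds the nascent precursor, had 12.7 and 10.7 FPKM in TCN1_OE, against 19.3 and 17.6 FPKM in NC, and fell by 0.66 ± 0.12 with an edgeR adjusted p of 0.04996. UTP4 of the same complex had 5.96 and 6.20 FPKM in TCN1_OE and 8.67 and 11.4 FPKM in NC. Its log2 fold change, -0.72 ± 0.15, was larger than that of WDR43, but its NC libraries lay further apart and the adjusted p was 0.0690. The other UTP-A genes HEATR1, NOL11, WDR75 and UTP15 stood at -0.37 ± 0.09, -0.35 ± 0.10, -0.32 ± 0.11 and -0.12 ± 0.13. UTP15 was the single UTP-A member whose groups overlapped, with 4.07 and 4.21 FPKM in TCN1_OE and 4.77 and 4.16 FPKM in NC.

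In the UTP-B complex, WDR3 and WDR36 stood at -0.49 ± 0.12 and -0.28 ± 0.11, and in UTP-C NOL6 stood at -0.62 ± 0.19. NOL6 had 4.81 and 6.77 FPKM in TCN1_OE and 7.62 and 10.2 FPKM in NC, and TCN1_OE replicate 2 lay close below NC replicate 1. RRP9, a protein specific to the U3 snoRNP, stood at -0.43 ± 0.18. UTP20, a large HEAT-repeat protein, had 6.36 and 6.26 FPKM in TCN1_OE and 9.34 and 8.89 FPKM in NC, and at -0.54 ± 0.10 came nearest to the threshold without passing, with an edgeR adjusted p of 0.0540. Of the DEAD-box helicases, DDX10 stood at -0.51 ± 0.11 and DDX52 at -0.15 ± 0.15, with overlapping groups for DDX52 and a value of 0.01 without NC replicate 1. NOP14, a scaffold protein of the processome, stood at -0.36 ± 0.13, and NOL10 at -0.18 ± 0.11 with 1.78 and 1.74 FPKM in TCN1_OE and 1.98 and 1.99 FPKM in NC.

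Of the 5 factors of the later pre-40S particle, 1 fell. TSR1, a GTPase-like protein, had 15.5 and 14.9 FPKM in TCN1_OE, against 23.5 and 21.6 FPKM in NC, and fell by 0.58 ± 0.10 with an edgeR adjusted p of 0.0453, with 20.9% of its exonic bases under other genes. PNO1, BYSL and RRP12 stood at -0.60 ± 0.16, -0.57 ± 0.15 and -0.46 ± 0.11 without passing. LTV1 stood at -0.20 ± 0.21 and was the pre-40S member with overlapping groups, at 6.15 and 6.40 FPKM in TCN1_OE and 8.62 and 5.68 FPKM in NC, and its value was 0.13 without NC replicate 1.

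Of 19 tested large subunit factors, 17 had a negative value, against 49.7% of all genes tested, and the median was -0.34. At an unadjusted p under 0.05, 17 were lower, against 6.81% of all genes tested. Over all genes 1, URB2, fell, with 0.212% of all genes tested called lower. URB2, which works with URB1 at an early step of pre-60S folding, had 3.69 and 4.27 FPKM in TCN1_OE, against 6.85 and 6.99 FPKM in NC. Its counts were 367 and 377 in TCN1_OE and 820 and 485 in NC, its log2 fold change of -0.80 ± 0.13 was the lowest of all members, and the edgeR adjusted p was 0.0418. URB1 had 2.56 and 2.75 FPKM in TCN1_OE and 3.64 and 3.504 FPKM in NC, at -0.43 ± 0.12 with an adjusted p of 0.157. GNL3, the nucleolar GTPase nucleostemin, and MRTO4, a relative of a ribosomal stalk protein, came next, at -0.55 ± 0.11 and -0.58 ± 0.12 with adjusted p of 0.0619 and 0.0739. GNL3 had 13.6 and 13.1 FPKM in TCN1_OE and 19.9 and 18.9 FPKM in NC, with a small spread in both groups. MRTO4 had 18.4 and 17.8 FPKM in TCN1_OE and 29.3 and 24.3 FPKM in NC.

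The other large subunit factors are given by complex. In the PeBoW complex, BOP1, WDR12 and PES1 stood at -0.45 ± 0.16, -0.33 ± 0.13 and -0.26 ± 0.10. In each, both TCN1_OE libraries lay below both NC libraries, a pattern shown by 21.0% of all genes tested. NOC3L and NOC2L, which bind each other in yeast, stood at -0.47 ± 0.16 and -0.34 ± 0.12, and the AAA ATPase genes NVL and MDN1 at -0.36 ± 0.12 and -0.31 ± 0.09. The remaining GTPases GTPBP4 and GNL2 stood at -0.39 ± 0.10 and -0.32 ± 0.12, and the helicase genes DDX18 and DDX56 at -0.29 ± 0.10 and -0.26 ± 0.09. NOP16 and RRP1B stood at -0.47 ± 0.15 and -0.28 ± 0.12. None of these passed over all genes, with adjusted p between 0.122 for GTPBP4 and 0.379 for RRP1B.

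Of the 3 genes of abundant nucleolar proteins, 1 fell. DDX21, a helicase that contacts both RNA polymerase I and snoRNAs, had 25.4 and 23.3 FPKM in TCN1_OE, against 35.7 and 33.0 FPKM in NC, and fell by 0.50 ± 0.09 with an edgeR adjusted p of 0.0475. Nucleolin (NCL) had 86.3 and 80.6 FPKM in TCN1_OE and 116.0 and 105.5 FPKM in NC, at -0.41 ± 0.08 with an adjusted p of 0.0718. Nucleophosmin (NPM1) had 84.4 and 69.2 FPKM in TCN1_OE and 100.9 and 88.8 FPKM in NC, at -0.31 ± 0.11. The NPM1 groups came close, at 84.4 FPKM for TCN1_OE replicate 1 and 88.8 FPKM for NC replicate 2, and the annotation names 45 NPM1 pseudogenes, with which its reads can be shared. NCL and NPM1 were the most abundant members per length.

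**Figure D4:**
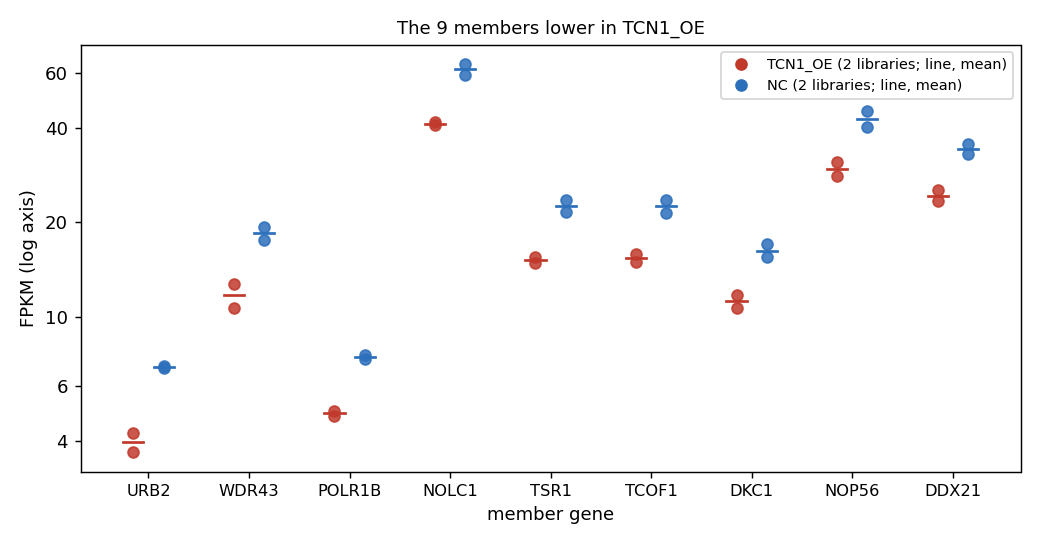
FPKM (log axis) of the 9 members that fell, ordered from the lowest to the highest log2 fold change; red points are the 2 TCN1_OE libraries, blue points the 2 NC libraries and lines the group means. In each gene both TCN1_OE points lie below both NC points, from URB2 at 3.69 and 4.27 against 6.85 and 6.99 FPKM to NOLC1 at 41.8 and 40.9 against 64.1 and 59.1 FPKM.

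Set side by side, the class medians ran from -0.43 to -0.32. The median log2 fold changes were -0.35 for RNA polymerase I factors, -0.32 for snoRNP factors, -0.43 for small subunit factors, -0.34 for large subunit factors and -0.41 for the 3 abundant proteins. The members of the small subunit class alone ran from -0.72 to -0.12, and those of the RNA polymerase I class from -0.60 to -0.01. Medians of several genes are bound to spread less than single genes, so these ranges do not show that the classes behaved alike. Genes are not replicates, so no test was made between classes. The FPKM summed over a class gave the same order of groups in each: 156.7 and 152.1 in TCN1_OE against 213.8 and 208.4 in NC for the small subunit, and 207.2 and 209.5 against 268.4 and 274.0 for the large subunit. The sums were 55.6 and 57.1 in TCN1_OE against 68.8 and 71.0 in NC for RNA polymerase I factors, and 152.8 and 144.2 against 205.8 and 188.1 for snoRNP factors. In all 5 classes both TCN1_OE sums lay below both NC sums, with 196.1 and 173.1 FPKM in TCN1_OE and 252.6 and 227.3 FPKM in NC for the abundant proteins.

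Ribosome assembly genes outside the 60 gave no call in the main edgeR fit. Of 142 such genes in 5 lists, 138 were listed and 7 of those had too few counts to test. Of the rest, 120 had a negative value, against 49.7% of all genes tested. At an unadjusted edgeR p under 0.05, 50 of them were lower and 0 higher, against 6.81% and 6.00% of all genes tested. In 80 of them the FPKM of both TCN1_OE libraries lay below both NC libraries, against 21.0% of all genes tested. These lists too were chosen with earlier results known, so the shares are no independent test. Of these other genes, 0 were called over all genes by edgeR and 1 by DESeq2, which also called 15 of the 60. Their median log2 fold change was -0.24. For 51 other large subunit factors the median was -0.27, and the members with the smallest p were the early pre-60S factors RRS1 and CCDC86, at -0.70 ± 0.16 and -0.63 ± 0.15, followed by HEATR3, which loads a ribosomal protein for import, at -0.50 ± 0.12. For 39 other small subunit factors the median was -0.25, with the nucleolar protein LYAR at -0.68 ± 0.16, the rRNA acetyltransferase gene NAT10 at -0.34 ± 0.09 and the rRNA methyltransferase gene BUD23 at -0.40 ± 0.11. The 9 snoRNP assembly factors had a median of -0.32, with the ATPase gene RUVBL1 at -0.39 ± 0.09, ZNHIT6 at -0.33 ± 0.12 and RPAP3 at -0.31 ± 0.11. The 23 exosome and RNase MRP genes had a median of -0.20, with the exosome subunits EXOSC2 and EXOSC9 at -0.41 ± 0.10 and -0.52 ± 0.14 and POP1, shared by RNases P and MRP, at -0.27 ± 0.12. The 9 other RNA polymerase I genes had a median of -0.06 and 0 at an unadjusted p under 0.05. POLR1D, which like POLR1C is shared with RNA polymerase III, had 11.02 and 9.51 FPKM in TCN1_OE and 9.46 and 8.70 FPKM in NC, at 0.17 ± 0.10, while POLR1G and TAF1D stood at -0.80 ± 0.38 and -0.26 ± 0.13. PAK1IP1 of the large subunit list was high in TCN1_OE replicate 1 alone. It had 3.80 and 0.222 FPKM in TCN1_OE and 0.690 and 0.623 FPKM in NC, at 1.61 ± 1.28. NOP9 of the small subunit list was high in NC replicate 1 alone. It had 0.160 and 0.0785 FPKM in TCN1_OE and 2.27 and 0.114 FPKM in NC, at -3.36 ± 1.86. The cause of these single high libraries was not tested.

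Several members also carry snoRNAs in their introns. In GENCODE v29, 11 of the 60 hold at least 1 snoRNA gene on their own strand, 18.3%, against 1.71% of 12130 protein-coding genes tested. NOP56 holds 5 and NOP58 holds 4, GNL3 holds 6, and WDR43 and NCL hold 3 each. Of the 11 hosts, 4 fell (NOP56, DKC1, WDR43 and TSR1), and of the 46 tested members that hold none, 5 fell. The median log2 fold changes were -0.43 for the hosts and -0.35 for the others. These polyA libraries give the host transcripts and not the snoRNAs.

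Promoter sequences are shown because a canonical E-box, CACGTG, recurs in them near the start of transcription. The motif reads the same on both strands and is bound by MYC, a known activator of ribosome assembly genes, and by related factors. RefSeq promoter entries (250 bases before to 50 after the start, GRCh38.p14) were matched for 48 of the 60 members, some with more than 1 start. The motif was present for 20 of the 48, 41.7%, against 12.5% of 9656 protein-coding genes tested with an entry and 8.77% of all 27305 genes with an entry. By class it was found for 9 of 19 small subunit, 7 of 15 large subunit, 3 of 6 snoRNP and 1 of 3 abundant members, and 0 of 5 RNA polymerase I members. The 8 tested members with the motif and the smallest p are aligned here on it, 5' to 3' on the gene's strand, with the motif in capitals.
DDX21: ccgggtgtccCACGTGgtccccggcg
WDR43: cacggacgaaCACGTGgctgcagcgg
UTP20: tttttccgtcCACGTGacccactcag
GNL3: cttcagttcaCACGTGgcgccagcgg
UTP4: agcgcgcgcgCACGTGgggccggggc
MRTO4: tcttccgccgCACGTGgattcagcgc
BYSL: cttcagtcccCACGTGcgatccttcc
PNO1: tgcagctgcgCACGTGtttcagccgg

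In 18 of the 20 promoters the first motif began within 40 bases of the RefSeq start, 90.0%, against 26.6% of the 1296 promoters of protein-coding genes tested that hold it; the 40 bases were chosen after the positions were seen. WDR43 has it 4 bases into the transcript and DDX21 31 bases before the start of the entry shown. Another DDX21 entry, chr10:68955920-68956219, lacks the motif, and GNL3 and GAR1 likewise have an entry without it. The whole windows of the called members WDR43 and DDX21 are given with that of TSR1, a called member without the motif. They are chr2:28894417-28894716 on the plus strand, chr10:68956397-68956696 on the plus strand and chr17:2336408-2336707 on the minus strand.
WDR43: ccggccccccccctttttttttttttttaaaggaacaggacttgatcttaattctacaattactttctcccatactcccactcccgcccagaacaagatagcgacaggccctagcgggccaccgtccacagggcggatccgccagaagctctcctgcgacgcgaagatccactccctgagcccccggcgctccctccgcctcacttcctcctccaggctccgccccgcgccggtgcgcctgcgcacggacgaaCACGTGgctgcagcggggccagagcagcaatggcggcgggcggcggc
DDX21: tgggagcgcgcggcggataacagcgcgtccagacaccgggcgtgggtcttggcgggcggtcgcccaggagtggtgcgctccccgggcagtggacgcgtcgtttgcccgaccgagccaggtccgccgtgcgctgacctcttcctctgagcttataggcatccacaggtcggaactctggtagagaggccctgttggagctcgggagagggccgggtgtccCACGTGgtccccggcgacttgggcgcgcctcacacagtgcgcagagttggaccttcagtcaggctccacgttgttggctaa
TSR1: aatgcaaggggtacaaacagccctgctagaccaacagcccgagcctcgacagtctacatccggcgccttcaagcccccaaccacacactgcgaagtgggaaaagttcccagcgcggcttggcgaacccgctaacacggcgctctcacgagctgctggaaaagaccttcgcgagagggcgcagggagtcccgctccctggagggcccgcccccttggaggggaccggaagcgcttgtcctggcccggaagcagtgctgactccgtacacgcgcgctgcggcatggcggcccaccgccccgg

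Members fell both with and without the motif. The 19 tested members with CACGTG had a median log2 fold change of -0.47 and the 26 tested members with an entry but no motif one of -0.35, a difference that was not tested. Of the called members, WDR43 and DDX21 hold the motif, POLR1B, NOP56, DKC1 and TSR1 fell without it in these windows, and TCOF1, NOLC1 and URB2 had no entry. FBL, which did not fall, has it 7 bases into the transcript. A match is a run of letters and not a measured binding site.

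**Figure D5:**
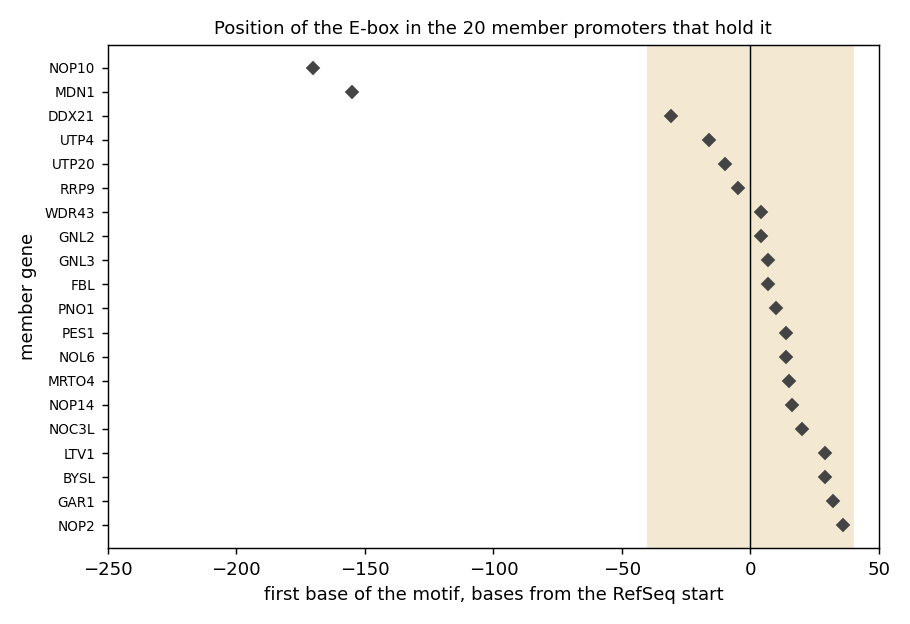
Position of the first CACGTG in the 20 member promoters that hold it, in bases from the RefSeq start (x axis, from 250 before to 50 after), one row per gene; the shaded band covers 40 bases either side of the start. All but MDN1 and NOP10 lie within the band, from 31 bases before the start in DDX21 to 36 after it in NOP2.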

How the data were processed

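HISAT2, HTSeq 0.13.5 and GRCh38 are named in the submitters' processing notes; the gene annotation, strand setting and handling of reads with several matches are not given there. Per the file headers, the authors deposited a raw count and an FPKM value per gene and library. The counts were tested with edgeR 4.0.16 in R 4.3.3 (quasi-likelihood, TMM factors, robust, group as the only term, filterByExpr with a minimum count of 10), with Benjamini-Hochberg adjustment over all 15113 genes tested and a threshold of 0.05. The SE is the log2 fold change divided by the square root of F. The smallest exact two-sided permutation p for 2 libraries per group is 0.333. Alternatives used DESeq2 1.42.0, limma 3.58.1 on log2(FPKM + 0.5) and log2(FPKM + 0.1), other scalings and filters, and the replicate number as a block. The edgeR step was also run on simulated counts, with set changes larger than the median change of the members. The outcome is not given here, so that run backs none of the results above. Exonic overlap and hosted snoRNAs came from GENCODE v29 (GRCh38). There 41 of 60 members had an exonic length within 5% of that in the files, and 6 had the same length. Members, lists and alternatives were chosen with earlier results of these data known. Genes named in full were FBL, called members, in each class the 4 with the smallest p and the 2 with the smallest change, and members with a positive value; other members are given with their complex. Of the other assembly genes, the 3 with the smallest p per list are named, and POLR1D, PAK1IP1 and NOP9. Counting error alone underlies the floor of 3 counts. Protein sequences were not used here.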

Additional observations from a re-analysis of the deposited data

How the results depend on the processing

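Members called lower (9) became 15 with DESeq2, 7 with RLE size factors (losing NOP56 and WDR43), 11 without TMM factors, 26 without a filter on low counts, 2 on genes of at least 1 FPKM and 0 with limma on FPKM at either pseudocount, and ran from 10 to 17 when 1 library was left out. Members called higher (0) ran from 0 to 1, the 1 being FBL without TCN1_OE replicate 2, where its log2 fold change was 3.14; over the 4 such fits it ran from 0.69 to 3.14. Other assembly genes called lower (0) became 1 with DESeq2 and 12 without a filter, and ran from 1 to 5 when 1 library was left out. The class medians kept their sign in all 12 alternatives. That of RNA polymerase I factors was -0.32 with limma at a pseudocount of 0.5, and with 1 library left out that of snoRNP factors ran from -0.42 to -0.23 and that of large subunit factors from -0.40 to -0.33. Of the 57 tested members, 5 changed sign in at least 1 alternative, each time with 1 library left out. LTV1 gave 0.13 without NC replicate 1. Over the 4 such fits DDX52 ran from -0.28 to 0.013, UBTF from -0.080 to 0.042, NOP2 from -0.51 to 0.70 and PPAN from -0.34 to 0.45. The cause was not tested.

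The labels give both groups replicate numbers 1 and 2 but do not say that a number marks a shared day or culture. The correlation over genes of the replicate 1 minus replicate 2 difference between groups was 0.15. The chi-square per degree of freedom of the counts of a library pair was 11.19 for NC and TCN1_OE replicate 1. It was 9.291 for NC and TCN1_OE replicate 2. For unlike numbers it was 17.54 (NC replicate 1, TCN1_OE replicate 2) and 12.77 (NC replicate 2, TCN1_OE replicate 1). This measure also rises with library depth. Replicate 2 lay on the same side of replicate 1 in both groups for 73.7% of tested members. The same held for 72.7% of the 11277 tested genes of at least 1 FPKM with a count in every library. Whether the numbers mark a shared day or culture was not tested. With the replicate number as a block, 45 members and 67 other assembly genes were called lower, on 1 residual degree of freedom.

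Library totals were 11593377 to 19973550 counts. NOC4L, RRN3 and NOP10 had too few counts to pass the filter, and the reason was not tested.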
